A study of Mus musculus with 4 samples.

Results

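Alternative activation genes of macrophages, 7 in number (Retnla, Chil3, Il4ra, Tgm2, Pparg, Ccl17 and Ccl24), were examined in peritoneal macrophages of WT and Setdb1 KO mice given vehicle or lipid A. They were represented by 14 probe sets, which are all those whose only gene symbol in the platform annotation is one of the 7, among 34945 probe sets with 1 symbol and 18193 genes. KO mice were LysM Cre/+:Setdb1 fl/fl, and WT mice were +/+:Setdb1 fl/fl, so that both genotypes, labelled as C57BL6/J, carried the floxed alleles and only KO mice carried Cre. LysM drives Cre in macrophages and neutrophils, and Setdb1 encodes a histone H3K9 methyltransferase. The cells were drawn into the peritoneum by thioglycollate, kept as the adherent fraction and stimulated for 4 h with lipid A, the active part of LPS. The lipid A concentration is 10 ug/ml in the treatment protocol of the samples and 10 ng/ml in the design text of the series. The study's figure legend for the array experiment also gives 10 ng/ml. There was 1 Affymetrix mouse expression array for each of the 4 conditions. The number of mice behind an array, and their age and sex, were not stated in the labels or methods.

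Alternative activation is the state that macrophages take up under the type 2 cytokines interleukin-4 and interleukin-13, typical of helminth infection, allergy and tissue repair. These cytokines bind receptors that share the IL-4 receptor alpha chain, encoded by Il4ra, and the transcription factor STAT6 then turns on target genes, with help from the lipid-sensing nuclear receptor PPARγ, encoded by Pparg. Retnla (encoding RELMα, also called FIZZ1), Chil3 (the chitinase-like protein Ym1), Tgm2 (transglutaminase 2, which cross-links proteins) and the chemokine genes Ccl17 and Ccl24 are widely used markers of the state. Ccl17 attracts cells bearing CCR4, mainly T cells of the type 2 response, and Ccl24 (eotaxin-2) attracts eosinophils through CCR3. Lipid A acts through TLR4 and drives the opposing, classical kind of activation.

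The promoters of the members are shown first because STAT6 acts on its targets through a short palindrome. RefSeq sequences (build GRCm38.p6) covered 5 of the 7 members with 7 start sites, Tgm2 and Ccl24 having no entry. The 250 bases before each start were searched on both strands for TTCNNNNGAA, the STAT6 site, and for TTCNNNGAA, the form that other STAT proteins also bind. The STAT6 site was found in Retnla and Ccl17 among the members, and in 5.85% of 32841 promoter windows of the same length. The site with 3 bases between was found in Chil3 and Ccl17, and in 7.02% of the windows. The NF-κB consensus, held by 7.25% of the windows, and a direct repeat of AGGTCA with 1 base between, held by 0.0335%, were found in none of the members' windows. Il4ra and the 3 starts of Pparg held none of the 4 motifs. A match describes letters and was not tested as a binding site. In the windows of Retnla (chr16:48842359-48842608, plus strand) and Chil3 (chr3:106167565-106167814, minus strand) and the 30 bases around the Ccl17 STAT6 site (chr8:94810289-94810318, plus strand), written 5′ to 3′ along the gene, capitals mark the match, which begins 145 bases before the start in Retnla, 172 bases in Chil3 and 154 bases in Ccl17.

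Retnla: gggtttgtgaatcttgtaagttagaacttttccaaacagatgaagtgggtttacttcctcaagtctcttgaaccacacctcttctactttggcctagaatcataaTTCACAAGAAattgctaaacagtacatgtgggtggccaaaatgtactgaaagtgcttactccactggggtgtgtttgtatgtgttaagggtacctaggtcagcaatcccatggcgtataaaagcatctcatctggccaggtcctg
Chil3: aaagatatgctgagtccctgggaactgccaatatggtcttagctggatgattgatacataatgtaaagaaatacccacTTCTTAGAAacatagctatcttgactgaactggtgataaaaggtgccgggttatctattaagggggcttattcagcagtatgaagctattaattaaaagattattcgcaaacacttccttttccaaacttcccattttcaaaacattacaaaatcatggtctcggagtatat
Ccl17: cgagtgaccaTTCTCTGGAAagccacaaac

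Signals are on the linear scale of the deposited table, and the median of an array served as its background level, at 65.1 with vehicle and 74.8 with lipid A in WT, and at 84.2 and 75.8 in KO. With 1 array for each condition no difference has a replicate check or a test, and a fold only compares 2 arrays. Where the dimmer signal was below its array median, the fold is given as a lower bound against that median. As a measure of technical spread, the log2 difference varied among the probe sets of a gene with an SD between 0.39 and 0.46, depending on the comparison. This SD leaves out differences between mice and any error shared by the probe sets of an array, such as from RNA preparation, labelling or hybridization. The array medians stood 0.37 apart on the log2 scale between KO vehicle and WT vehicle, 0.20 between WT lipid A and WT vehicle, -0.15 between KO lipid A and KO vehicle and 0.019 between KO lipid A and WT lipid A. The 3′ to 5′ signal ratio of the Gapdh control probe sets was 1.35 in KO vehicle and between 0.945 and 1.07 on the other arrays, and that of actin was 2.19 in KO vehicle and between 1.79 and 2.09 on the others. Setdb1 gave 589 with vehicle and 521 with lipid A in WT macrophages, and 346 and 386 in KO macrophages. The position of its probe set relative to the deleted part is not known here, so this does not check the genotype. For the labelled cell type, 13 of 14 macrophage identity genes with a probe set reached the array median on all 4 arrays, the exception being Cd163, and their summed signal was between 336265 and 371402. That sum was mostly Lgals3, Lyz2, Cd68, Ctsd and Csf1r. Between the genotypes 0 of the 13 differed by over 3-fold. Under vehicle the largest differences were Adgre1, 2.73-fold lower in KO (3726 against 10187), and Fcgr1, 1.94-fold higher. Under lipid A they were Cd14, 1.97-fold higher in KO, and Mertk, 1.78-fold lower.

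Of the 7 members, 5 (Il4ra, Pparg, Retnla, Chil3 and Tgm2) were at or above the array median on every array, whereas Ccl17 and Ccl24 reached it in KO lipid A alone. In WT macrophages lipid A was accompanied by more Tgm2 and less Pparg. In KO macrophages the folds of both genes were larger, and Il4ra, Ccl17 and Ccl24 were also higher with lipid A. Between the genotypes, Chil3 was lower in KO under both treatments, and Retnla, Ccl17 and Ccl24 were over 3-fold higher in KO under lipid A by the ratio of the signals, which for the 2 chemokines is not secured because their WT signals were background.

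**Figure D1:**
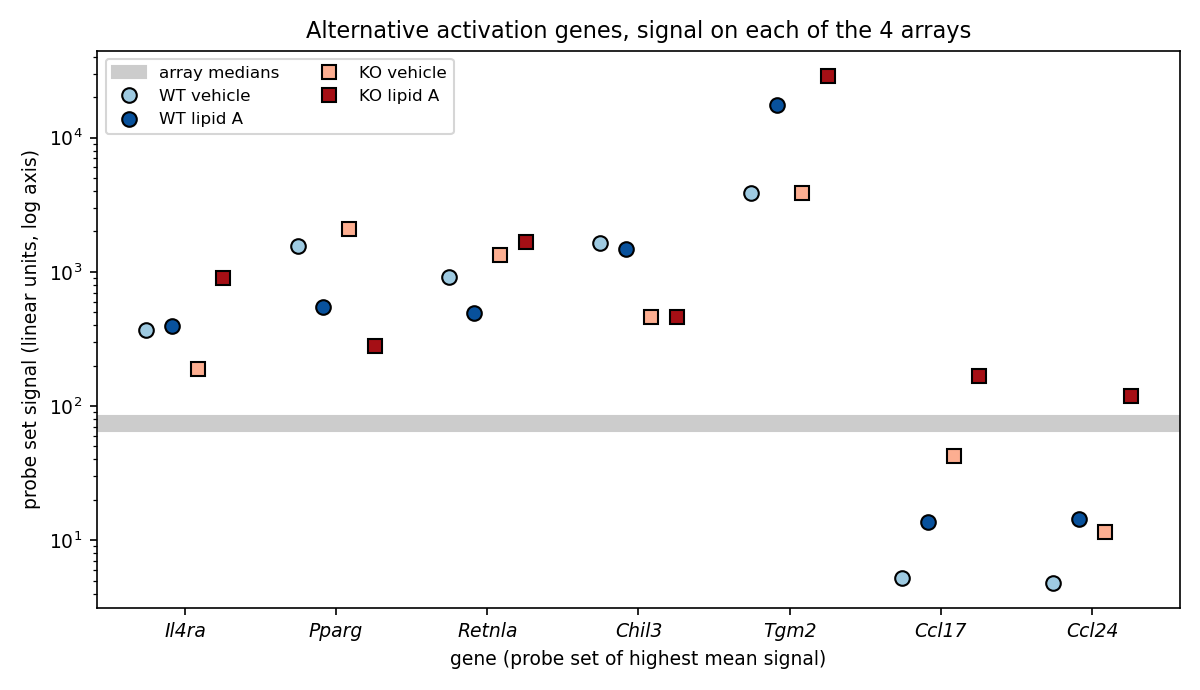
Signal of the 7 alternative activation genes (log axis, linear units) on the 4 arrays, with 1 point for each array and the probe set of highest mean signal for each gene. The grey band spans the array medians from 65.1 to 84.2, and Ccl17 and Ccl24 lie above it in KO lipid A only, while Chil3 is lower on both KO arrays than on both WT arrays.

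Il4ra encodes the receptor chain that both cytokines use. It gave 371 with vehicle and 397 with lipid A in WT macrophages, and 190 and 900.1 in KO macrophages. The highest signal was that of KO lipid A and the lowest that of KO vehicle, and the 2 WT arrays differed by 0.098 on the log2 scale, within the technical spread. In KO macrophages Il4ra was 4.74-fold higher with lipid A than with vehicle (log2 difference 2.25), whereas in WT macrophages the ratio was 1.07. Relative to WT, KO macrophages had 1.95-fold less Il4ra signal under vehicle and 2.27-fold more under lipid A, both short of the 3-fold threshold used between genotypes. These values come from 1 of the 3 probe sets of Il4ra. A further one gave 64.1, 71.2, 17.5 and 96.3 in the same order of arrays and the last gave 81.0, 6.10, 69.5 and 97.2, so that they reached the array median on 1 and 2 arrays. Both were at their highest in KO lipid A, but so close to background that they give no measured fold for the lipid A response of KO macrophages.

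Pparg encodes the nuclear receptor that supports the alternative state and lipid uptake. Its only probe set gave 1570 with vehicle and 545 with lipid A in WT macrophages, and 2085 and 279 in KO macrophages. Both lipid A arrays were below both vehicle arrays, and the KO arrays held the extremes at either end. Pparg was 2.88-fold lower with lipid A in WT macrophages and 7.48-fold lower in KO macrophages, log2 differences of -1.53 and -2.90. Between the genotypes KO macrophages had 1.33-fold more under vehicle, a log2 difference of 0.41 within the technical spread of 0.42, and 1.96-fold less under lipid A.

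Retnla encodes a secreted protein of the resistin family and holds a STAT6 site in the window shown above. It gave 922 with vehicle and 490.3 with lipid A in WT macrophages, and 1345 and 1673 in KO macrophages. Both KO arrays were above both WT arrays, and the lowest signal was that of WT lipid A. With lipid A, Retnla was 1.88-fold lower in WT macrophages, just short of the 2-fold threshold, and 1.24-fold higher in KO macrophages, the latter log2 difference of 0.32 being within the technical spread of 0.46. KO macrophages had 3.41-fold more Retnla than WT under lipid A and 1.46-fold more under vehicle. With the array median as the reference point Retnla passed 2-fold lower in WT as well. The log2 difference between KO and WT under vehicle then fell from 0.55 to 0.18, within the technical spread of 0.42.

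Chil3 encodes Ym1, a chitinase-like lectin that monocytes and neutrophils also make. It gave 1643 with vehicle and 1481 with lipid A in WT macrophages, and 458 and 463 in KO macrophages. The signal followed the genotype and hardly the treatment, the ratio between lipid A and vehicle being 1.11 in WT and 1.01 in KO macrophages. KO macrophages had 3.59-fold less Chil3 than WT under vehicle and 3.20-fold less under lipid A. A probe set annotated to both Chil3 and its close paralog Chil4, which is no member because it has 2 symbols, gave 652 with vehicle and 582 with lipid A in WT, and 101 and 130.02 in KO, or 6.48-fold and 4.47-fold less in KO. The probe set of Chil4 alone was below the array median on all 4 arrays. Cross-hybridization between the paralogs was not tested.

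Tgm2 encodes transglutaminase 2, an enzyme of protein cross-linking that also responds to inflammatory signals. The brightest of its 6 probe sets gave 3868 with vehicle and 17609 with lipid A in WT macrophages, and 3894 and 28722 in KO macrophages. The vehicle arrays were alike and both lipid A arrays were higher, most so in KO. Tgm2 was 4.55-fold higher with lipid A in WT macrophages and 7.38-fold higher in KO macrophages. Of its probe sets 5 were above background on all arrays, and their log2 difference with lipid A was 1.95 ± 0.25 in WT and 2.85 ± 0.086 in KO (mean and SD over 5 probe sets of the same 4 arrays, which are no replicates). Under lipid A all 5 probe sets were higher in KO, by 1.56-fold to 1.84-fold. Under vehicle 2 of the 5 were higher in KO, and their mean log2 difference was -0.11 ± 0.21. The remaining probe set stayed below the array median throughout.

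**Figure D2:**
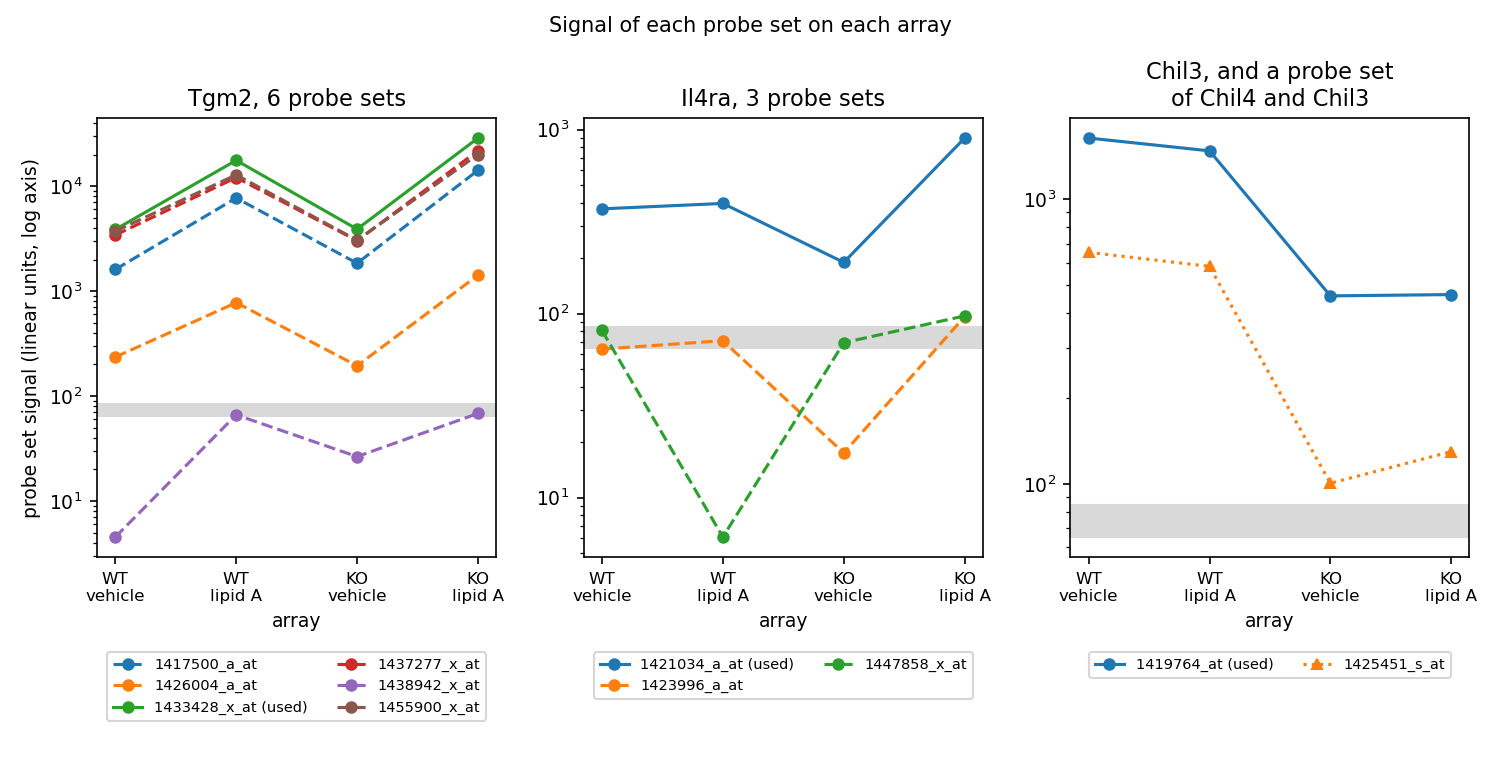
Signal (log axis, linear units) of each probe set of Tgm2, Il4ra and Chil3 on the 4 arrays, with the grey band spanning the array medians and lines joining the arrays for 1 probe set. For Tgm2, 5 probe sets run in parallel, for Il4ra only 1 of 3 is clear of the band, and the probe set of Chil4 and Chil3 together is lower on both KO arrays, as is that of Chil3.

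Ccl17 encodes a chemokine for T cells that dendritic cells also produce in quantity. It gave 5.28 with vehicle and 13.8 with lipid A in WT macrophages, and 42.3 and 167 in KO macrophages. Only the last was above background. The KO lipid A signal was at least 1.99-fold higher than that of KO vehicle and at least 2.24-fold higher than that of WT lipid A. Both bounds were below the thresholds of 2-fold and 3-fold used here.

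Ccl24 encodes an eosinophil chemokine of macrophages. It gave 4.85 with vehicle and 14.5 with lipid A in WT macrophages, and 11.6 and 119.8 in KO macrophages. As for Ccl17, KO lipid A alone stood above background, here at the 60.7th percentile of the probe sets of that array. It was at least 1.42-fold higher than KO vehicle and at least 1.60-fold higher than WT lipid A, again short of the thresholds. Among the other genes listed for these chemokines and their receptors, Ccl22, a second ligand of CCR4, gave 60.4 and 9.44 in WT and 42.9 and 392 in KO, vehicle first, and was likewise above background in KO lipid A alone. It was at least 5.24-fold higher there than in WT lipid A. The receptor gene Ccr4 reached 79.6 in KO lipid A against 3.73 in WT lipid A, a bound of 1.06-fold, and Ccr3 was below the median on every array. Ccl5, a chemokine of the classical response that also binds CCR3, reached 27849 in WT and 53151 in KO under lipid A.

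By the thresholds of the study's methods, over 2-fold for lipid A and over 3-fold between the genotypes, calls were made on the ratio of the signals for genes whose higher signal reached its array median. In WT macrophages 5 of the 7 members were detected in this way, and 1 (Tgm2) was called higher and 1 (Pparg) lower with lipid A. The background was 11.8% higher and 8.94% lower among 12129 detected genes. In KO macrophages all 7 were detected, with 4 called higher (Il4ra, Tgm2, Ccl17 and Ccl24) and 1 called lower (Pparg), against 11.2% and 16.0% of 12293 genes. Without the chemokines, which were detected only through the array where they were high, 2 of 5 were called higher. Between KO and WT under vehicle 1 of the 5 detected members (Chil3) was called lower and 0 were called higher, against 3.65% and 6.28% of 12002 genes. Under lipid A 3 of 7 (Retnla, Ccl17 and Ccl24) were called higher and 1 (Chil3) lower, against 6.35% and 5.73% of 12335 genes, and 1 and 1 of the 5 members measured on both arrays. The calls of Ccl17 and Ccl24 rest on ratios to background signals, and their lower bounds passed neither threshold. The shares given are over genes detected by their higher signal, and none was computed for genes measured on both arrays. Over the 5 members measured on every array the log2 difference had a median of -0.15 for lipid A in WT and 0.32 in KO, and 0.0099 between genotypes under vehicle and 0.71 under lipid A. Over all genes above background on both arrays it was -0.089, -0.19, 0.087 and -0.012. Taking in Ccl17 and Ccl24, which were detected through KO lipid A alone, the medians in the comparisons with that array would be 1.98 and 1.18, the former being the ratio of Ccl17 to a background signal. Comparisons that share an array, such as both comparisons with WT lipid A, are not independent of each other. Because the members were listed with results of these arrays known, the counts describe them and test nothing.

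**Figure D3:**
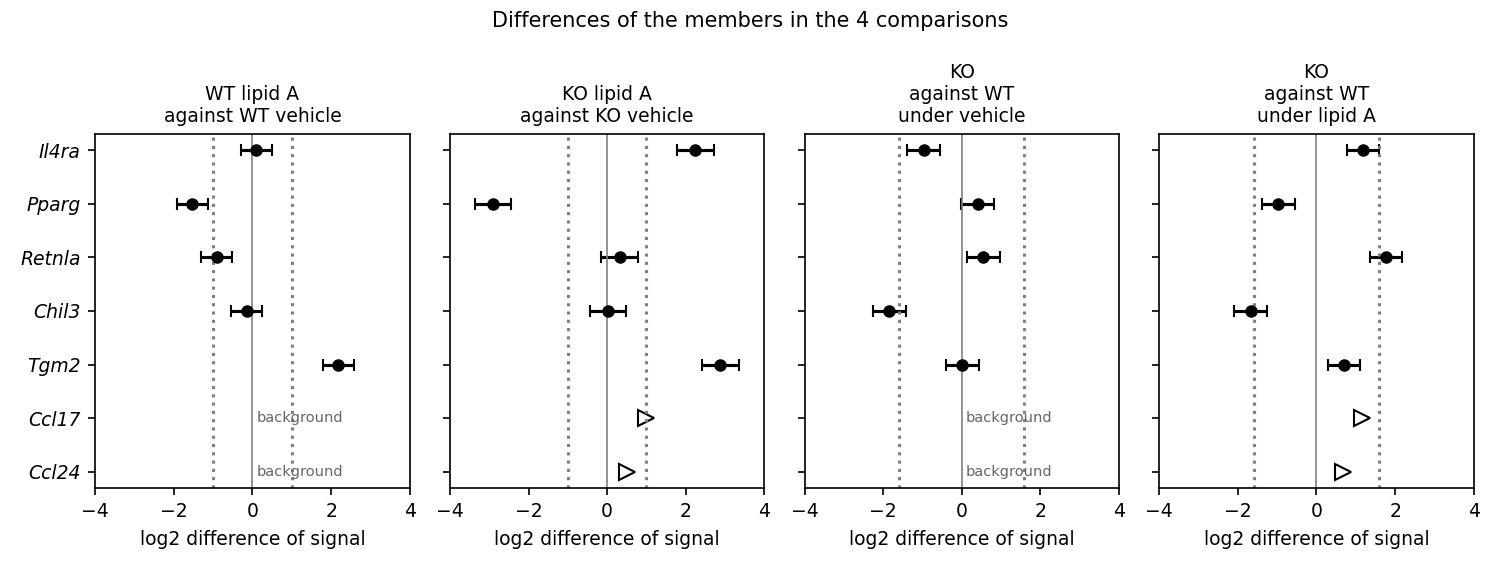
Log2 difference of the members in the 4 comparisons, with filled points for genes above background on both arrays, bars of 1 technical SD between probe sets of a gene, and open triangles at the lower bound where the dimmer signal was background. Dotted lines mark 2-fold in the 2 panels on lipid A and 3-fold in the panels between genotypes, and Chil3 lies beyond the line in both of the latter.

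The response to lipid A differed between the genotypes most for Il4ra among the members above background on all arrays. The log2 response in KO minus that in WT was 2.15 for Il4ra, 1.23 for Retnla, 0.70 for Tgm2, 0.16 for Chil3 and -1.38 for Pparg. Over the 9047 genes above background on all 4 arrays this quantity had a median of -0.085, and the middle 90% ran from -1.07 to 0.83. Il4ra stood at the 99.6th percentile of these genes, Retnla at the 98.0th, Tgm2 at the 92.6th, Chil3 at the 69.8th and Pparg at percentile 2.21. The members thus stood at both ends of the distribution. Each of these values uses KO vehicle, the array with the highest median and control ratios, whose part in them was not tested.

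**Figure D4:**
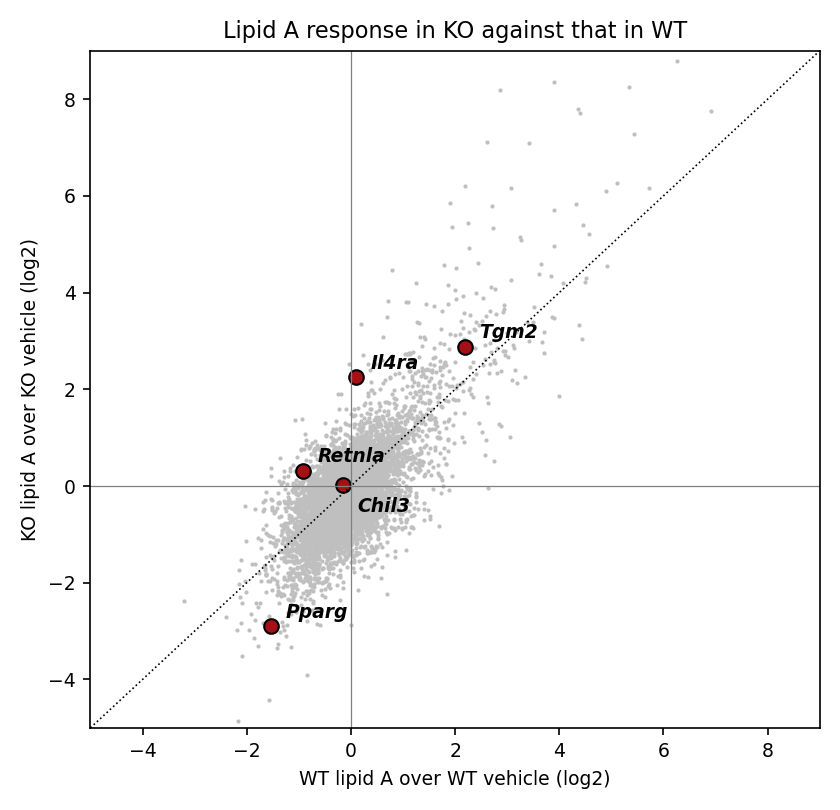
Log2 difference of lipid A over vehicle in KO (vertical axis) against that in WT (horizontal axis) for 9047 genes above the array median on all 4 arrays (grey points), with 5 members in red and the dotted line at equal responses. Il4ra and Retnla lie above the line and Pparg below it, with differences of 2.15, 1.23 and -1.38.

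Upstream of the members, 18 of 19 genes listed for IL-4 and IL-13 receptor signaling had a probe set. The cytokine genes Il4 and Il13 were below the array median on every array. Il13ra1, the partner chain of Il4ra in the receptor for interleukin-13, gave 591 and 912 in WT and 387 and 439 in KO, vehicle first, so that under lipid A it was 2.08-fold lower in KO while Il4ra was higher. Stat6, named after its values were seen, stayed between 2334 and 3490.2 on the 4 arrays. Between KO and WT under lipid A, 1 of the 14 detected genes of the list was called higher and 0 lower, near the 6.35% and 5.73% of all detected genes, with a median log2 difference of 0.013 beside -0.013 over all detected genes. The 1 gene was Socs3, an inhibitor of cytokine signaling, with 2484 in WT against 14395 in KO under that treatment, or 5.79-fold. Jak2, a kinase of many cytokine receptors, was higher with lipid A by 4.29-fold in WT and by 8.86-fold in KO macrophages. Under lipid A, Jak3 gave 154 in WT and 106 in KO, and the adaptor gene Irs2 gave 126 and 179.

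Of 16 transcription regulators of alternative activation, 15 had a probe set, and under lipid A 2 of 14 were called higher and 2 lower in KO, against 6.35% and 5.73% of all detected genes, with a median of 0.041. Irf4, which acts in IL-4 responses of macrophages and also in B cells, gave 24.2 and 9.48 in WT and 199.96 and 215 in KO, vehicle first, at least 3.07-fold higher in KO under vehicle and 2.87-fold under lipid A. Kdm6b, a histone H3K27 demethylase that lipid A also induces, had 3.13-fold more signal in KO with that treatment. Klf4, a partner of STAT6, gave 4084 in WT and 1274 in KO under lipid A, or 3.21-fold less. Ppargc1b, a coactivator of PPARγ and STAT6, gave 648 and 277 in WT and 333 and 34.3 in KO, vehicle first, and was at least 3.65-fold lower in KO lipid A.

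The other genes known to be induced by IL-4 had more called differences between the genotypes than the lists of receptor signaling, regulators and lipid handling. Of 35 genes 31 had a probe set, and under lipid A 22 were detected, of which 12 were called higher and 1 lower in KO, against 6.35% and 5.73% of all detected genes. Their median log2 difference was 1.77, and 0.99 over the 15 genes above background on both arrays, beside -0.013 and -0.012 over all genes, and 6 of these 15 were called higher. Once background signals were set to the array median, 9 were over 3-fold higher and 0 lower. For these counts of 6 and 9 no share over all genes was computed. Measured on both arrays, Cish, a feedback inhibitor of STAT5 signaling, was 12.4-fold higher in KO (143 against 1772), Fn1 (fibronectin) 5.03-fold and Slc7a2, a transporter of arginine, 4.72-fold (2565 against 12103). Against background in WT, the lectin gene Clec10a was at least 5.95-fold higher and the anti-inflammatory cytokine gene Il10 at least 3.68-fold (8.65 against 275). Cdh1, an adhesion gene with a large plain ratio, had a bound of 1.09-fold. Fn1, Slc7a2 and Clec10a were named for this comparison after their values were seen. Part of this list also responded to lipid A. Against vehicle, 4 of 19 detected genes were called higher and 2 lower in WT macrophages (11.8% and 8.94% of all detected genes). Among the 4 were Slc7a2, up 9.63-fold, and Cish, up at least 2.20-fold. In KO macrophages 10 of 21 were called higher and 2 lower (11.2% and 16.0%). The part of this response in the KO excess was not tested. Between KO and WT under vehicle 20 were detected, 4 called higher and 1 lower (6.28% and 3.65% of all detected genes), with a median of 0.48 beside 0.097 over all genes. Fn1 was 5.44-fold higher in KO vehicle, Clec10a 8.86-fold (121 against 1075) and Cd209a at least 3.42-fold, and the 1 gene called lower was Fcer2a, which B cells also express, with 104 in WT and background in KO (at least 1.24-fold). Of further markers of the state, named after their values were seen, Mrc1, the mannose receptor CD206, gave 3271 and 3642 in WT and 1675 and 2246 in KO, vehicle first, or 1.95-fold and 1.62-fold less in KO, and Arg1 (arginase 1) was below the median on all arrays.

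Of 19 Pparg target genes of lipid handling 17 had a probe set, and their median was below that of all genes with lipid A in both genotypes. Among 14 detected genes 2 were called lower and 1 higher with lipid A in WT macrophages, near the 8.94% and 11.8% of all detected genes, with a median log2 difference of -0.24 beside -0.082. In KO macrophages 4 were called lower and 1 higher, against 16.0% and 11.2%, with a median of -0.73 beside -0.20. Abcg1, a cholesterol exporter, was 2.40-fold lower in WT and 2.78-fold lower in KO, and the desaturase gene Scd2 2.13-fold and 4.75-fold lower. Cpt1a, which admits fatty acids to mitochondria, was 2.50-fold lower in KO and gave 1043 and 1057 in the WT arrays. Between the genotypes under lipid A 0 of the 14 genes were called in either direction at 3-fold, with a median of -0.14, although Abca1, a cholesterol exporter, was 3.26-fold lower in KO under vehicle and, under lipid A, gave 12559 in WT and 4237 in KO.

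**Figure D5:**
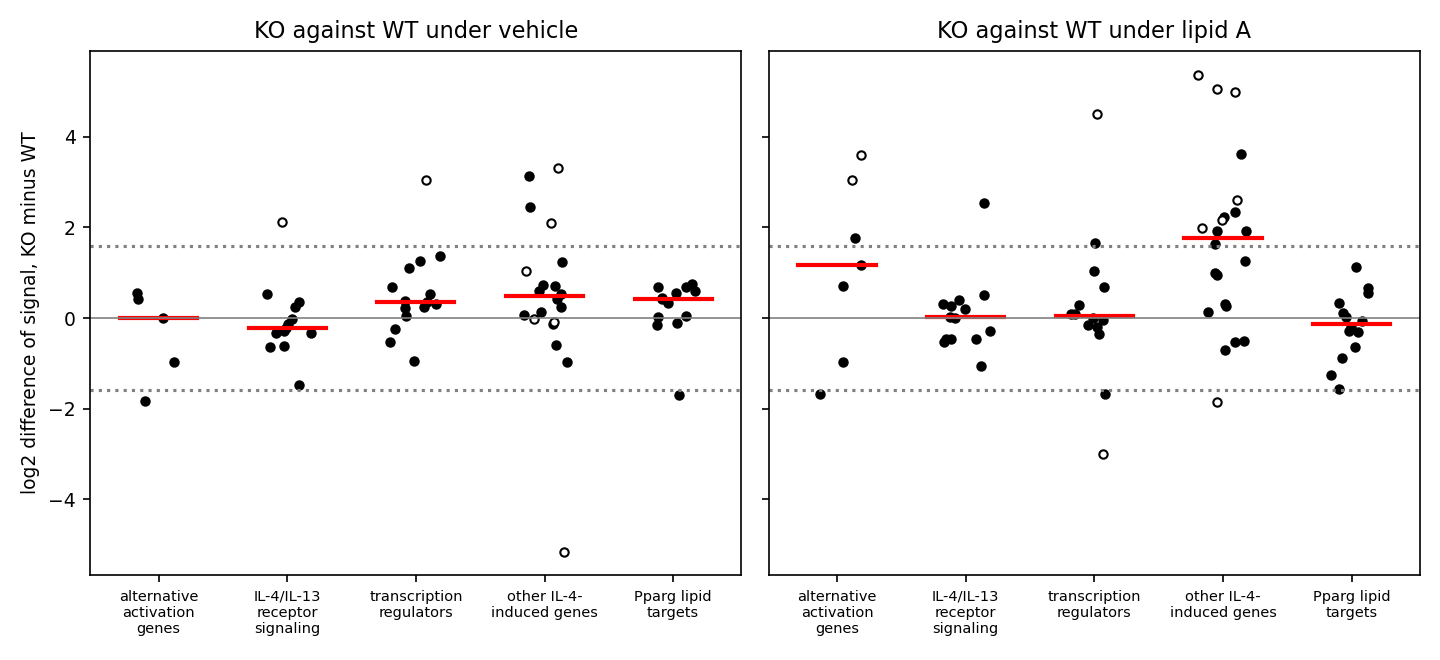
KO minus WT log2 difference for detected genes of 5 lists under vehicle (left) and lipid A (right), with filled points for genes above background on both arrays, open points for genes above it on 1 array, red lines at the medians and dotted lines at 3-fold. Under lipid A the median of the other IL-4-induced genes lies at 1.77, which takes in ratios to background signals. Over those above background on both arrays it is 0.99. The medians of receptor signaling and regulators lie near 0.

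Markers of other cells moved with some of these differences, and in bulk RNA fewer cells of a type and less RNA per cell cannot be told apart. Beside Chil3, the 11 neutrophil markers with a probe set had summed signals of 6479 and 5214 in WT and of 2569 and 2808 in KO, vehicle first, with 5 or 6 of them at or above the array median on each array. Mmp8, a collagenase of neutrophils and the largest of these differences, was 9.01-fold lower in KO vehicle and 10.8-fold lower in KO lipid A, and S100a8, with 1727 and 1721 in WT and 569 and 676 in KO, was likewise lower on both KO arrays. Mmp8 made up much of the sum, and Csf3r, a receptor gene of neutrophils and monocytes, went the other way, with 753 and 731.5 in WT and 1083 and 1583 in KO. Of the 8 markers detected under vehicle 4 were called lower and 2 higher in KO, and of the 6 under lipid A 1 was called lower and 0 higher. Over all detected genes 3.65% were called lower and 6.28% higher under vehicle, and 5.73% and 6.35% under lipid A. Once background signals were set to the array median, 2 neutrophil markers were over 3-fold lower and 0 higher under vehicle. The median log2 difference of the detected markers was then 0.28, in place of -0.54 by the plain ratio. For this count no share over all genes was computed. The granule genes Mpo, Elane and Ltf were near background, at most 102, 106 and 99.7, each in KO vehicle. Among inflammatory monocyte markers, of which 7 of 11 had a probe set and Chil3 itself is 1, Hp (haptoglobin) was at least 12.8-fold and 20.4-fold lower in KO, whereas Plac8 was higher, with 1570 and 2564 against 83.9 and 168.5 in WT. Genes of resident large peritoneal macrophages, all 16 with a probe set, summed to 4307 and 4372 in WT and to 16481 and 14703 in KO, with 9 of 13 detected genes called higher in KO under vehicle and 8 of 12 under lipid A, against 6.28% and 6.35% of all detected genes. The part of these cells in the differences of Retnla and Chil3 was not tested.

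Beside Ccl17, dendritic cell markers (11 of 12 with a probe set) summed to 1181 and 1964 in WT and to 1694 and 2426 in KO, vehicle first. Fscn1, which activated macrophages can also express, gave 597 and 1465 in WT and 381 and 1626 in KO. Under lipid A 2 of 7 detected genes of this list were called higher in KO (Cd209a at least 2.21-fold and Itgae at least 1.56-fold) and 1 lower, against 6.35% and 5.73% of all detected genes. The latter was Zbtb46, a transcription factor of dendritic cells, with 171.6 in WT and 41.3 in KO (at least 2.27-fold). Flt3, Xcr1 and Siglech were below the array median on all arrays. B cell markers (11 of 12 with a probe set) summed to 2737 and 2583 in WT and to 8043 and 7551 in KO, on whose arrays Irf4 was also higher. Most of the WT sum was Cd22, which went the other way, with 1949 and 1880 in WT and 1618 and 1012 in KO. Under vehicle 7 of 10 detected genes of this list were called higher in KO and 1 lower. Under lipid A 6 of 9 were called higher and 1 lower. The shares over all detected genes were 6.28% and 6.35% called higher, and 3.65% and 5.73% called lower. Once background signals were set to the array median, 5 and 4 were over 3-fold higher and 0 lower, counts for which no such share was computed. Ms4a1 was 16.7-fold and 22.5-fold higher in KO. Eosinophil markers were near background, with 2 of 7 genes reaching the median on any array and the granule genes Epx, Prg2 and Prg3 on none, and mast cell and basophil markers reached it for 3 of 10. The sum over T and NK cell markers (11 of 14 with a probe set), between 24209 and 37213, was almost all Il7r, which gave 31416 and 28297 in WT and 35961 and 23265 in KO. Cd3d, a subunit of the T cell receptor complex, was above background only in KO, with 287 and 151, at least 4.401-fold and 2.02-fold higher than in WT. In the same list Cd2 was called higher under vehicle (at least 3.34-fold) and Cd3g under lipid A (at least 1.36-fold), making 2 of 5 and 2 of 9 detected genes called higher and 0 lower. Over all detected genes 6.28% and 6.35% were called higher and 3.65% and 5.73% lower. Markers of mesothelium and fibroblasts (14 of 14) summed to 2274 and 1988 in WT and 1202 and 1198 in KO. The part of these cells in the results was not tested.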

How the data were processed

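Total RNA was hybridized as biotinylated cRNA to 1 Affymetrix array for each condition. The authors deposited 1 table of linear probe set intensities, and the software that computed them is not named in the labels or methods read here. All 4 arrays had the same mean of 500.004 once the top and bottom 2% of signals were dropped, from which a scaling of whole arrays was inferred. The detection and increase calls of the study's methods are not used here.

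After 64 controls were left out, 45037 probe sets remained, of which 34945 had 1 gene symbol in the platform annotation, 932 several and 9160 none. Symbols were updated through the gene numbers of the RefSeq table (34741 matched). A gene was represented by its probe set of highest mean log2 signal. The members and lists were chosen with earlier results of these data known. Within a list, the 4 genes or fewer with the largest difference by plain ratio were named. Defining markers, cytokines and receptors of a list and further genes were named after their values were seen. No test was made, as each condition had 1 array, and the number of arrays limits the precision. The calling step was tested on simulated data, with folds placed only in genes well above the array median. Folds near background, such as those of Ccl17 and Ccl24, were not covered. Alternatives covered scaling, low signals, detection, probe sets and thresholds. Python 3.11.15, numpy 2.4.6, pandas 2.3.3 and matplotlib 3.10.9 were used.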

Additional observations from a re-analysis of the deposited data

Results flagged for a closer look

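Among the members above background on all arrays, 4 had log2 differences of opposite sign in the 2 groups of a contrast. The difference between the groups was not tested, since each rests on 1 array for each condition. Retnla was lower with lipid A in WT (-0.91) and higher in KO (0.32), a difference between the responses of 1.23. The value in KO was within the technical spread of 0.46. For Chil3 the 2 responses were -0.15 and 0.015 and differed by 0.16, less than the technical spread between probe sets. Il4ra was lower in KO than in WT under vehicle (-0.97) and higher under lipid A (1.18), which differ by 2.15. Pparg was higher in KO under vehicle (0.41) and lower under lipid A (-0.97), a difference of -1.38. Its value under vehicle was within the technical spread of 0.42, and was 0.039 with arrays centred on their medians.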

How the results depend on the processing

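No paired analysis was possible because each condition had 1 array, and for the same reason no array could be left out. Of 217 recomputed log2 differences of members, 208 moved by less than the technical spread, 9 moved by more and 0 of the called ones changed sign. The 9 arose where low signals were raised to the array median (5) or 50 was added to every signal (4). Many of the 217 could not move, so that 208 overstates how far the values were put to the test. Taking the brightest probe set without a suffix left all 31 values as they were. The median over probe sets cannot change a gene with 1 probe set, and raising low signals could change only Ccl17 and Ccl24. Near 0, Il4ra in the WT response turned from 0.098 to -0.10 with arrays centred on their medians, and Tgm2 between genotypes under vehicle from 0.0099 to -0.36 with that scaling, -0.046 with arrays centred on commonly detected genes and -0.084 with the median over probe sets. The counts of called members depended on Ccl17 and Ccl24. With no detection filter 4 members in place of 2 were called for WT lipid A, and 2 in place of 1 between genotypes under vehicle. With low signals raised, with both arrays required above the median, or with the 75th percentile required, 3 in place of 5 were called for KO lipid A and 2 in place of 4 between genotypes under lipid A. With 50 added, the latter count was 2, as Chil3 and Ccl24 fell under 3-fold. A threshold of 3-fold left 1 member (Tgm2) for WT lipid A. A threshold of 1.5-fold gave 2 members between genotypes under vehicle and 7 under lipid A. Of these 7, 5 were higher and 2 lower in KO, and the 5 took in Ccl17 and Ccl24, whose WT signals were background. For 1.5-fold no share over all genes was computed, so these counts have nothing to be set against.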

Other observations

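Genes nearest to the members were sought by the distance of their centred log2 signals over the 4 arrays, among 9046 other genes above background on the same arrays. With 4 arrays many genes come close to any pattern, and the distances are a description. Tgm2 was nearest to Nfkbia, an NF-κB inhibitor that NF-κB itself induces, at a distance of 0.071, with 9880 and 47523 in WT and 10543 and 74761 in KO, vehicle first, followed by Orai2 at 0.11. Chil3 was nearest to Efhd2 at 0.13 (22001 and 22081 in WT, 6214 and 6758 in KO) and to Dcn, the decorin gene of fibroblasts, at 0.22. Pparg was nearest to Pgm2l1 and Cd300lb, both at 0.16, and Cd300lb, a myeloid receptor gene, gave 9104 and 3041 in WT and 13539 and 1681 in KO. Il4ra was nearest to Stk40 at 0.28 and Lztfl1 at 0.29, and Retnla to the metallothionein gene Mt1, at 0.27, and Sorbs3, at 0.27. Within a distance of 0.5 there were 18 genes for Tgm2, 10 for Chil3, 21 for Pparg, 11 for Il4ra and 28 for Retnla. For Ccl17 and Ccl24, 11004 genes were above background on the 1 array where they were, and since the other 3 signals were background, their nearest genes (Fgf13 and Mmp13, and Apol7a and 1700018B08Rik) are named without a reading.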
